A study of Homo sapiens with 6 samples.

Results

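The genes described here encode 3 death receptors (TNFRSF10A, TNFRSF10B and FAS), the initiator caspase CASP8 with its inactive relative CFLAR, and 3 inhibitors of apoptosis proteins, or IAPs (BIRC2, BIRC3 and XIAP). They were picked by gene symbol, at a time when earlier results of these data were known, and all 8 were found among the 19223 symbols of the deposited table. The RNA came from LoVo, a cell line grown from a human adenocarcinoma of the colon. The cells received vehicle only (Control, n = 3) or 2.5 μM DCC-2036 (n = 3), a tyrosine kinase inhibitor also called rebastinib. The sample labels give 48 h for both groups, whereas a figure legend of the study gives a shorter time. Nothing in the labels says that replicates came from separate experiments, so p-values measure the spread between these libraries, which may be technical.

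The table holds 1 value per RefSeq transcript and library, a signal said to be adjusted for depth by the authors, in a way that is not given. The number of reads is therefore unknown, and the column totals are totals of adjusted values. They were 38997229 to 40587145 in Control and 43279603 to 48023306 with DCC-2036, so every treated library lay above every Control library. Values above 0 but under 0.1 occur 2061 to 2345 times per DCC-2036 library and 0 times in each Control library. The columns of the groups thus differ in form as well as in treatment, for a reason that is not given, and in every comparison below these cannot be told apart. The transcript of a gene whose mean across all 6 libraries is highest stands for that gene. Differences are log2 fold changes of value + 1, DCC-2036 against Control, tested with limma (two-sided) over the 12725 genes with at least 10 in at least 3 libraries. A gene was called at a Benjamini-Hochberg adjusted p under 0.01.

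Death receptors are surface proteins that carry a death domain on their inner side. When TRAIL binds the products of TNFRSF10A and TNFRSF10B, or Fas ligand binds FAS, the adaptor FADD joins the receptor and recruits the CASP8 protein, which is activated by pairing there and cuts executioner caspases. CFLAR takes the place of CASP8 in this complex without being a protease, and it can thus block or shape the signal. The IAPs act further along: XIAP binds and inhibits active caspases, while BIRC2 and BIRC3 are ubiquitin ligases that steer receptor complexes towards NF-kB signalling. Colorectal epithelium commonly carries TRAIL receptors and FAS.

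All 8 genes passed the filter on low values. With DCC-2036, CASP8 fell and 0 of the 8 genes rose at the adjusted threshold (limma), beside 19.2% of all tested genes called higher, 22.7% called lower and 41.9% called in either direction. At an unadjusted p under 0.05, 5 of the 8 genes were lower and 1 was higher, against 4590 and 3887 of all 12725 genes. In either direction this is 75% of the 8, beside 66.6% of all genes. The 3 values of each group did not overlap in 6 of the 8 genes, which is near the 71.1% of all tested genes and is no result about these 8. Their median log2 fold change was -0.37, where that of all genes was -0.09.

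**Figure D1:**
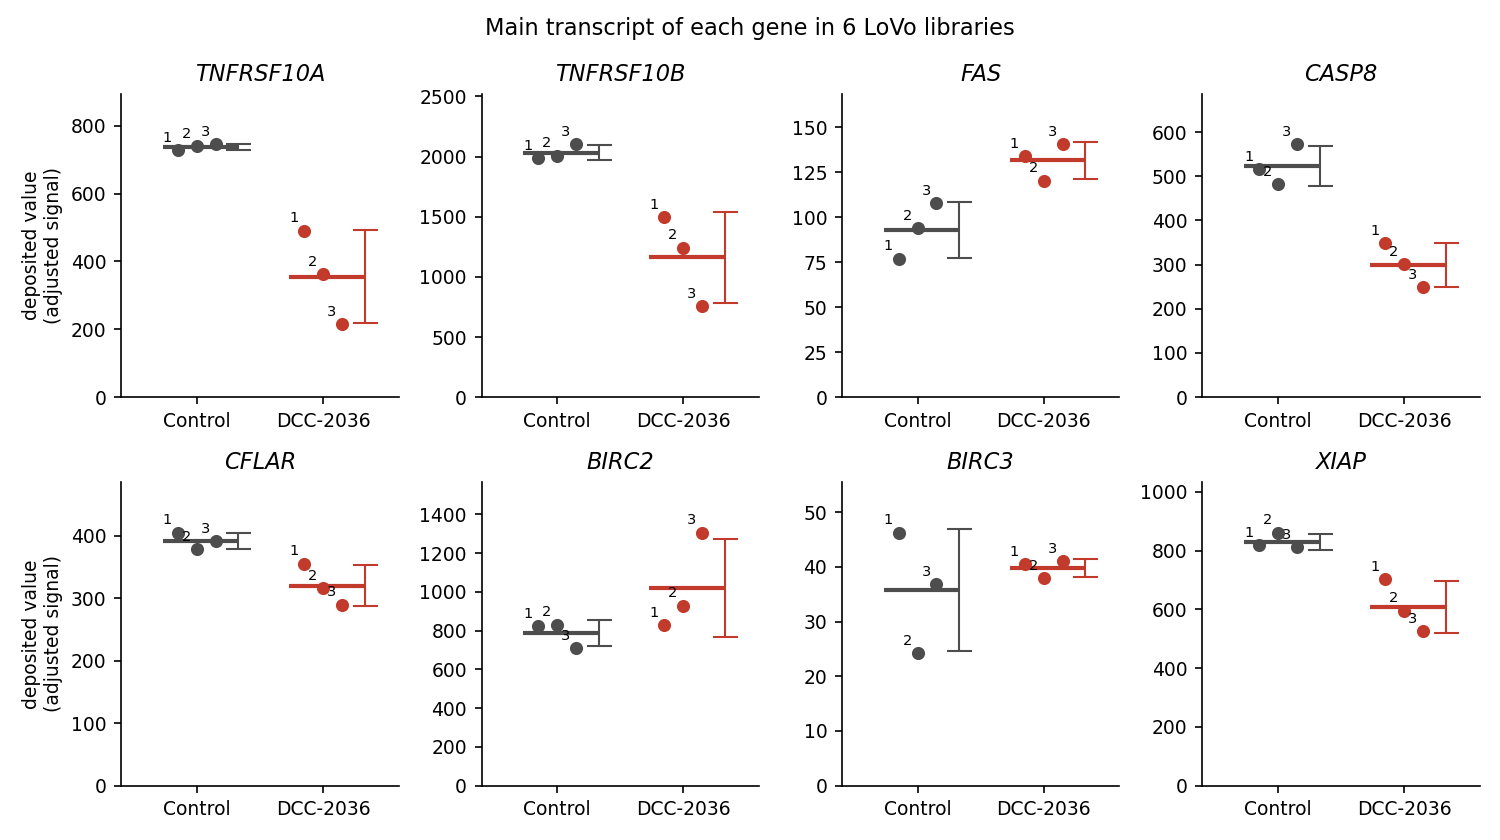
Deposited value (adjusted signal, linear axis from 0) of the main transcript of each of the 8 genes in 3 Control libraries (grey) and 3 DCC-2036 libraries (red), 1 point per library with its replicate number, the mean as a line and the SD as a bar beside it. The groups overlap for BIRC2 and BIRC3, and the DCC-2036 libraries of TNFRSF10A and TNFRSF10B lie far apart from each other.

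Of the receptors for TRAIL, TNFRSF10A (NM_003844.3) measured 727, 740.2 and 746 in the Control replicates, against 490.2, 361 and 215 in DCC-2036 replicates 1, 2 and 3. The Control libraries lay close together and every DCC-2036 library lay below them, with replicate 3 far below replicate 1. The mean was 737 ± 9.65 in Control and 355 ± 138 with DCC-2036 (SD, n = 3 each), or 48.2% of Control. The log2 fold change of -1.13 (95% confidence interval -1.82 to -0.44) was the largest of the 8 genes in size but was not called, at an adjusted p of 0.0143 (limma). TNFRSF10B (NM_003842.4) stood at 1989, 2008 and 2104 in Control, against at 1498, 1242 and 754 in DCC-2036, with the same order of the treated libraries and no overlap. Its log2 fold change was -0.86 (-1.46 to -0.26) at an adjusted p of 0.0231 (limma), also not called.

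The treated libraries spread widely in both genes. On the log2 scale the SD of TNFRSF10A was 0.02 in Control and 0.60 with DCC-2036, and that of TNFRSF10B was 0.04 and 0.51, where the medians of all genes were 0.10 and 0.23. Without DCC-2036 replicate 3, TNFRSF10A was at -0.81 with an adjusted p of 0.00492 and TNFRSF10B at -0.58 with 0.00687 (limma). Without replicate 1 they were at -1.40 with 0.00308 and at -1.07 with 0.00733. Over 18 alternatives, the adjusted p ran from 0.00308 to 0.0455 for TNFRSF10A and from 0.00687 to 0.0695 for TNFRSF10B. Because RNA of whole cultures was measured, a lower level in every cell cannot be told apart from a mixture of cells with and without the transcripts.

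FAS (NM_000043.5), the receptor of Fas ligand, differed the other way. It had 76.9, 94.0 and 108 in Control, against 134, 120.3 and 141 in DCC-2036. Each treated library lay above each Control library, by a margin of the same order as the spread within Control. For FAS the log2 fold change was 0.51 (0.15 to 0.87), not called at an adjusted p of 0.0249 (limma). The 4 FAS transcripts of the table had log2 fold changes of 0.51, 0.48, 0.52 and 0.43, and none was called. They include NM_152871.3, whose coding sequence of 945 bases against 1008 in NM_000043.5 lacks the exon for the membrane span and which is known to encode a soluble receptor. Its ratio to NM_000043.5 differed between groups by -0.03 on the log2 scale (-0.12 to 0.07). The other TNFRSF10B transcript, NM_147187.2, differed by -0.82 against -0.86 for the main transcript.

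CASP8, the initiator caspase of both receptor systems, was the member that passed the test. Its main transcript NM_001080125.1 had 516, 483 and 573 in Control, against 348, 301 and 249 in DCC-2036. All 3 treated libraries lay below all 3 Control libraries, with means of 524 ± 45.5 and 299 ± 49.6 (SD, n = 3). On the log2 scale of the test the SD was 0.12 in Control and 0.24 with DCC-2036. CASP8 fell by 0.81 on the log2 scale (95% confidence interval -1.18 to -0.45, adjusted p = 0.0044, limma), to 57.2% of Control. By p-value it ranked 3895 of 12725 genes, so many genes in these cells differed more clearly. The call was lost when any of 4 libraries was left out. Without Control replicate 1, 2 or 3 the log2 fold change was -0.82, -0.87 and -0.75 with adjusted p-values of 0.0189, 0.0149 and 0.0212, and without DCC-2036 replicate 2 it was -0.82 with 0.0186 (limma). Over 18 alternatives the log2 fold change stayed at or below -0.69, and the adjusted p ran from 0.00165 to 0.0212.

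The 6 CASP8 transcripts had similar fold changes. In a fit of all 32323 tested transcripts, of which 42.2% were called, 5 of the 6 fell, by 0.73 to 0.81 on the log2 scale. NM_033358.3, which has the shortest coding sequence of the 6 at 708 bases where the others have 1392 to 1617, was at -0.64 with an adjusted p of 0.0273 (limma). These calls were lost without Control replicate 1, 2 or 3, without DCC-2036 replicate 2 and with the replicate block. None of the 5 ratios to the main transcript passed the test. Transcripts of 1 gene share reads, so these values are not independent of each other.

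The promoter of CASP8 is shown because this gene passed the test. The window at chr2:201233213-201233512 (GRCh38.p14, plus strand, RefSeq) spans 250 bases before to 50 after a start of the gene. Capitals mark its 1 match to GGGCGG, the core of the SP1 motif, searched on both strands, which begins 96 bases before the start.

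CASP8 promoter: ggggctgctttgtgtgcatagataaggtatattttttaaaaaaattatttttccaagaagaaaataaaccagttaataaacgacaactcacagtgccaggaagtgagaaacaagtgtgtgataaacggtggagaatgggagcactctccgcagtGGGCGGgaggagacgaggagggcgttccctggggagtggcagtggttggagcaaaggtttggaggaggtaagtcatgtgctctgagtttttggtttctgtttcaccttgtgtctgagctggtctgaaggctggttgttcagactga

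This motif was found in 45.0% of all 35116 promoter windows of that length, and in 10 of the 16 windows given for 6 of the 8 genes, among them 1 of 3 for CASP8. A match describes the letters only.

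**Figure D2:**
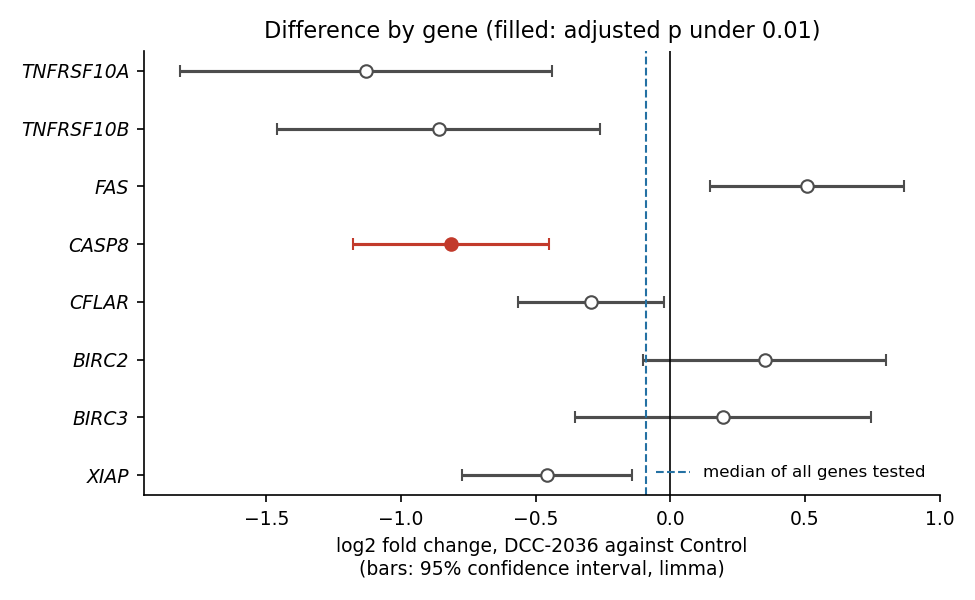
Log2 fold change of DCC-2036 against Control for the 8 genes, as points with 95% confidence intervals from limma, n = 3 libraries per group, with the median of all tested genes as a dashed line. CASP8, the filled point at -0.81, is the call among them, and the intervals of BIRC2 and BIRC3 cross 0.

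CFLAR, the inactive relative of CASP8, differed less. Its main transcript NM_003879.5, which encodes the long form of the protein, had 405, 378 and 392 in Control, against 356, 316 and 290.0 in DCC-2036. The groups did not overlap, but the log2 fold change was -0.29 (-0.56 to -0.02) with an adjusted p of 0.059 (limma) and was not called. Set against CASP8 in the same library, CFLAR gave a ratio of 0.785, 0.784 and 0.685 in Control and of 1.02, 1.05 and 1.16 in DCC-2036. The size of this ratio may depend on the length of both transcripts, as the adjustment of the values is not given. Only its difference between the groups is therefore read, and no test of it was made.

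Of the 10 CFLAR transcripts, 1 was called higher, 4 were called lower and the others were not called. In the fit of all transcripts, 4 fell by 0.53 to 0.66 on the log2 scale (NM_001202515.1, NM_001202517.1, NM_001202518.1 and NM_001202519.1), beside 42.2% of all transcripts called. All 4 calls were lost without Control replicate 1, 2 or 3, without DCC-2036 replicate 2 and with the replicate block. NM_001308043.1 rose from 159, 203 and 166 in Control to 269, 314 and 311 in DCC-2036, with no overlap between groups. This is a log2 fold change of 0.76 (0.44 to 1.08) with an adjusted p of 0.00351 (limma). NM_001127184.2, known as the transcript of the short form, had 117, 129 and 121 in Control, against 157, 150.5 and 152 in DCC-2036, and was not called at 0.32 (adjusted p = 0.0229, limma). NM_001308043.1 was singled out after its values had been seen.

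The rise of NM_001308043.1 was lost without Control replicate 1 (0.69, adjusted p = 0.0172), without Control replicate 3 (0.72, 0.0186) and without DCC-2036 replicate 2 (0.72, 0.018). Over 14 alternatives its adjusted p in limma ran from 0.00235 to 0.0186. Its ratio to NM_003879.5 was 0.392, 0.537 and 0.425 in Control, against 0.755, 0.993 and 1.07 after DCC-2036. The difference of this ratio was 1.05 on the log2 scale (0.57 to 1.54) with an adjusted p of 0.0569 (limma) and was not called, in a range of 0.0435 to 0.178 over 14 alternatives. The other CFLAR ratios to the main transcript had smaller differences, and none of them was called. Some had smaller adjusted p-values in limma, among them NM_001127184.2 at 0.62 (0.0422), NM_001308042.1 at 0.36 (0.0213), NM_001202518.1 at -0.34 (0.0192) and NM_001202515.1 at -0.36 (0.0244). Those of NM_001127183.2 and NM_001202516.1 were larger, at 0.911 and 0.728 (limma). Among all genes, 0.276% of 19592 such ratios were called, and 0 of the 22 ratios within the 8 genes (limma). At an unadjusted p under 0.05, 12 of the 22 ratios differed, 7 of them among the 9 of CFLAR, against 21.0% of all ratios.

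**Figure D3:**
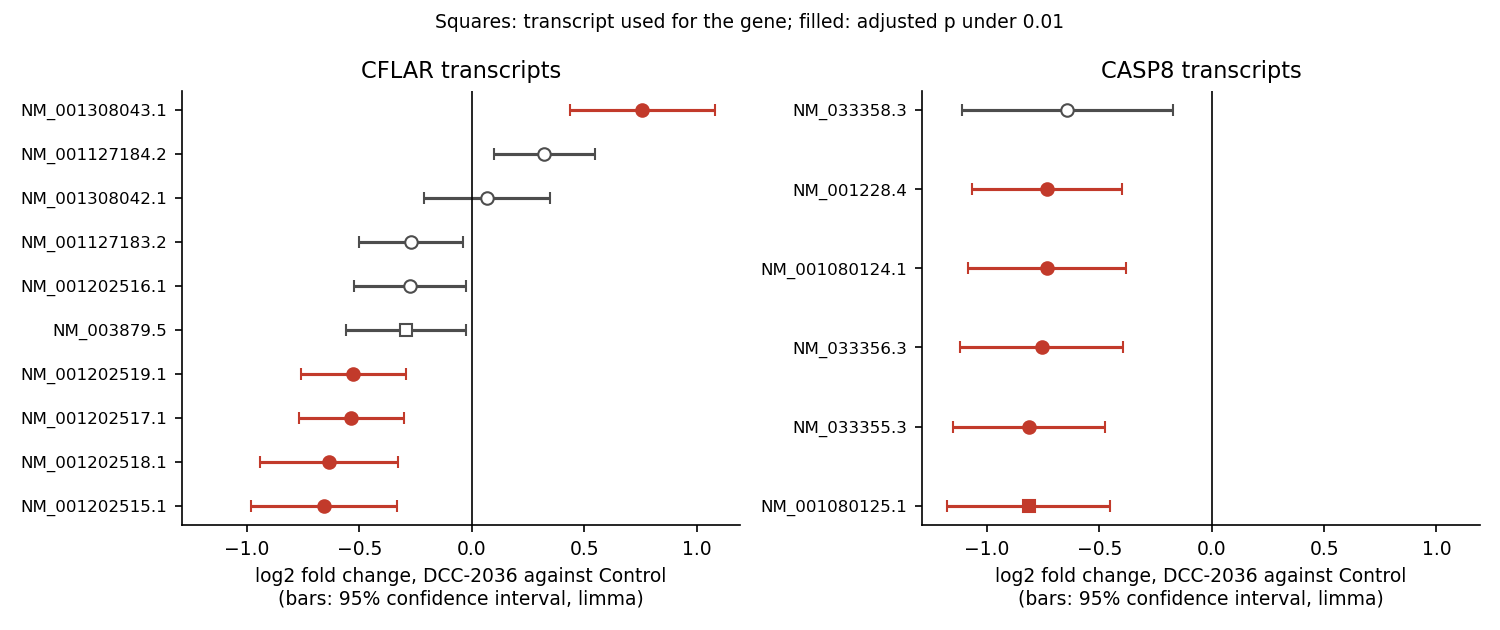
Log2 fold change of DCC-2036 against Control for each of the 10 CFLAR transcripts (left) and the 6 CASP8 transcripts (right), as points with 95% confidence intervals from limma over all transcripts, n = 3 libraries per group. CASP8 transcripts all lie between -0.81 and -0.64, whereas those of CFLAR run from -0.66 to 0.76.

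The sequences at the point where the CFLAR transcripts part are shown because NM_001308043.1 and the main transcript differ from there on. In GENCODE 29 (GRCh38), to which 25 of the 30 transcripts of these genes were matched by accession, this transcript has 5 exons. Its exon 4 ends at the same base as an exon of NM_003879.5, and its last exon at chr2:201136198-201139877 (plus strand) codes up to a stop codon after 230 bases. NM_003879.5 goes on instead with the 83 bases of chr2:201140357-201140439. Below, the last 30 shared coding bases are in lower case and what follows them is in capitals.

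NM_001308043.1: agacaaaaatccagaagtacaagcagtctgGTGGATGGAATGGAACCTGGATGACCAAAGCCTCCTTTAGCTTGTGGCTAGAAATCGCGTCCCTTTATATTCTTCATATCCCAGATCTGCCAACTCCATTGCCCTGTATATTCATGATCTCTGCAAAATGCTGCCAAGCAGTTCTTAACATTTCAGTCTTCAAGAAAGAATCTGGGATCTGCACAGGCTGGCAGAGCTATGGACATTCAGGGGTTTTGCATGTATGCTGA

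NM_003879.5: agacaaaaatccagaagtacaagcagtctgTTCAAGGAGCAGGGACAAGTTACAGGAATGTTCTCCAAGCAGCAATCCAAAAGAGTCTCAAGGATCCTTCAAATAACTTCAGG

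The coding sequence is 753 bases in NM_001308043.1 and 1443 bases in NM_003879.5. Of the 10 CFLAR transcripts measured, 5 were matched, and the unmatched ones, NM_001127184.2 among them, could not be compared. None of the 4 other matched CFLAR transcripts has an exon in this coding part. In the annotation, 2 of the 24 other CFLAR transcripts have an exon that overlaps its last exon at least in part. Reads from unspliced CFLAR RNA and reads from this exon cannot be told apart in these values.

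None of the IAP genes was called. XIAP (NM_001167.3) had 818, 861 and 811 in Control, against 704, 595 and 527 in DCC-2036. Every treated library lay below every Control library, and the log2 fold change of -0.46 (-0.77 to -0.14) was not called at an adjusted p of 0.0224 (limma). BIRC2 (NM_001166.4) had 823, 831 and 708 in Control, against 829, 928 and 1305 in DCC-2036. The groups overlapped, since DCC-2036 replicate 1 lay within Control, and the difference was 0.35 (-0.10 to 0.80). It was 0.16 without DCC-2036 replicate 3 and 0.49 without DCC-2036 replicate 1. BIRC3 (NM_001165.4) had low values, 46.3, 24.2 and 36.8 in Control, against 40.4, 37.9 and 41.0 in DCC-2036. All treated values lay inside the range of Control. The log2 fold change was 0.20 (-0.35 to 0.75), an interval that holds changes of more than 0.5 in the direction of a rise, and without Control replicate 2 it turned to -0.05. The other transcripts of these genes, 2 for BIRC2 and 1 each for BIRC3 and XIAP, had log2 fold changes of 0.31, 0.33, 0.29 and -0.44, and none was called.

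XIAP without DCC-2036 replicate 1 was called, at -0.57 with an adjusted p of 0.00576, in a range of 0.00576 to 0.0802 over 18 alternatives (limma). Scaling the libraries to equal totals shifted the median of all genes from -0.09 to -0.28, as the treated libraries have the higher totals. With it BIRC2 went from 0.35 to 0.16, FAS from 0.51 to 0.32 and BIRC3 from 0.20 to 0.01, while CASP8 lay further below 0. Relative to the median of all genes, BIRC2 stood at 0.44, FAS at 0.60 and CASP8 at -0.72, distances that a factor per library leaves nearly unaltered by construction. No scaling turned the direction of any of the 8 genes.

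BIRC3 is a known target gene of NF-kB, and its promoter is shown for its matches to the NF-kB consensus, in capitals. The window is chr11:102317234-102317533 (GRCh38.p14, plus strand, RefSeq). The 2 matches, on the minus strand, begin 199 and 135 bases before the start.

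BIRC3 promoter: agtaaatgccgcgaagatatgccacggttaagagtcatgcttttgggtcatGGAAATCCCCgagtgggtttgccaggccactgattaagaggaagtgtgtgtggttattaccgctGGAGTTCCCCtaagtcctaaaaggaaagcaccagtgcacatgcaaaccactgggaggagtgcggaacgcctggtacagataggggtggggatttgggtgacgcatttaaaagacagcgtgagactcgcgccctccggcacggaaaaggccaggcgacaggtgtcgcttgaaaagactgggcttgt

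The consensus, searched on both strands, occurred in 11.3% of all windows and in 3 of the 16 windows of these genes, 1 each for BIRC3, CFLAR and FAS. BIRC3 was not called, and its interval of -0.35 to 0.75 on the log2 scale leaves a change in either direction possible. Genes for NF-kB subunits were called in both directions. Of the 14 genes listed for NF-kB units and feedback, all tested, 2 rose and 6 fell, or 14.3% and 42.9% beside 19.2% and 22.7% of all genes, with 5 higher and 6 lower at an unadjusted p under 0.05 (limma) and a median of -0.19. The naming rule takes up to 4 per direction. Outside it, RELA at -0.89 and NFKBIB at -0.49 were called lower too. NFKB1 went from 948, 946 and 1012 in Control to 1543, 1950.2 and 2386 in DCC-2036 (log2 fold change 0.99), and REL rose by 0.87. NFKB2 went from 1763, 1669 and 1823 to 759, 639.7 and 574, a log2 fold change of -1.42, and RELB, the partner of the NFKB2 product, was at -1.38. MAP3K14, a kinase upstream of NFKB2, was at -1.26 and the inhibitor gene NFKBIE at -1.34. Of the 6 genes named by the rule, NFKB2 kept its call whichever library was left out. NFKB1, REL, RELB, NFKBIE and MAP3K14 each lost it without Control replicate 1, 2 or 3 and without DCC-2036 replicate 2, with log2 fold changes over 18 alternatives of 0.80 to 1.16, 0.68 to 0.97, -1.65 to -1.21, -1.60 to -1.17 and -1.45 to -1.02.

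The other genes of the pathway were taken from 13 lists with 101 genes, of which 80 were tested. Of these, 15 rose and 17 fell, or 18.8% and 21.3%, beside 19.2% and 22.7% of all genes, with a median of -0.13. Among them 30 genes were named by a rule, up to 4 per list and direction. The calls of 10 of the 30 held whichever library was left out. The other 20 were each lost without at least some library: 20 without Control replicate 1, 20 without Control replicate 2, 19 without Control replicate 3, 19 without DCC-2036 replicate 2, 1 without DCC-2036 replicate 1 and 0 without DCC-2036 replicate 3.

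Of the 11 genes for adaptors and kinases at the receptors, 3 fell, or 27.3% beside 22.7% of all genes, and 8 were not called. FADD, the link between receptor and CASP8, fell from 619, 609 and 549 in Control to 208, 157 and 166 in DCC-2036. The log2 fold change was -1.75 ± 0.14 (SE), between -1.94 and -1.67 over 18 alternatives. TRADD, the matching adaptor of the TNF receptor, went from 255, 197 and 220 to 84.0, 79.1 and 89.0, a log2 fold change of -1.40. Both calls held whichever library was left out. TRAF2, which holds BIRC2 and BIRC3 in the TNF receptor complex, fell by 1.13 and was lost in 8 of 18 alternatives. None of the 11 rose (0 also at an unadjusted p under 0.05, limma), and their median was -0.30.

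Of the 5 other death receptors, 4 were tested, with a median of -0.37. Of the 4, 1 was higher and 2 lower, or 25% and 50%, beside 19.2% and 22.7% of all genes. TNFRSF1A, the main TNF receptor, went from 1594, 1530 and 1513 in Control to 789, 606 and 360.2 in DCC-2036 (log2 fold change -1.47). TNFRSF25 fell by 0.86, and TNFRSF21 rose by 0.80. All 3 calls were lost without some library, with log2 fold changes over 18 alternatives of -1.72 to -1.16, -1.05 to -0.70 and 0.62 to 0.92. Of 4 decoy receptors, which bind ligands without passing on a death signal, 2 were tested, with 1 higher and 0 lower (0 also at an unadjusted p under 0.05, limma) and a median of 0.51. TNFRSF10D, a decoy for TRAIL, had 1669, 1836 and 1636 in Control, against 2277, 2425 and 2266 in DCC-2036. Its call at 0.44 was lost in 10 of 18 alternatives.

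The ligands were scarcely measured. Of 8 ligand genes 1 was tested, at -0.12, and it was not called. TNF was listed at 0 in all 6 libraries, FASLG in 5 of them, and TNFSF10, the gene for TRAIL, lay between 1.05 and 6.54. Among the ubiquitin editors at the receptors, 2 of 10 rose and 1 fell (median 0.26), beside 19.2% and 22.7% of all genes. The call of OTULIN, which takes linear ubiquitin chains apart, at 1.05, and that of RNF31, the catalytic part of the complex that builds them, at -1.28, held whichever library was left out. TNFAIP3, another editor, rose by 0.84, a call lost in 4 of 18 alternatives.

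Further along, 0 of the 6 tested genes for other caspases were called in either direction (limma), beside 41.9% of all genes. For the mitochondrial link and apoptosome it was 0 of 5. At an unadjusted p under 0.05 the counts were 1 higher and 2 lower among the caspases and 0 higher and 2 lower in the other list. Their medians were -0.33 and -0.16. Of the other IAPs 2 were tested, and BIRC5, known best for its role in mitosis, fell by 0.68. None rose, with 1 at an unadjusted p under 0.05, and the median was -0.14. The BIRC5 call was lost in 5 of 18 alternatives. Of 7 IAP antagonists and partners 6 had a row and 5 were tested, with a median of -0.47. Of the 5, 1 was higher and 2 lower, or 20% and 40%, beside 19.2% and 22.7% of all genes. HTRA2, a protease that binds IAPs once it leaves mitochondria, had 608, 696 and 710 in Control, against 197, 185 and 235 in DCC-2036 (log2 fold change -1.70), a call held whichever library was left out. TAB1, a partner of XIAP in kinase signalling, was at -2.26 with 284, 129 and 87.0 in DCC-2036, and UBE2D1 at 0.74. The calls of TAB1 and UBE2D1 were each lost in 5 of 18 alternatives.

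Of 8 genes for proteins that caspases cut, 4 were called higher and 1 lower, beside 19.2% and 22.7% of all genes, with a median of 0.34. DFFA, the inhibitor of the nuclease that cuts DNA in apoptosis, went from 1785, 1883 and 2012 in Control to 451, 357 and 299.7 in DCC-2036, a log2 fold change of -2.37. GSN rose by 1.17 and LMNA by 1.11, and these 3 calls held whichever library was left out. ROCK1 at 0.78 and PARP1 at 0.50 did not hold. In the necroptosis list 1 of 3 tested genes fell, MLKL at -0.95, and 0 rose, with 1 at an unadjusted p under 0.05 (limma) and a median of 0.01. The MLKL call was lost in 8 of 18 alternatives. RIPK3, the kinase that activates the MLKL protein, was listed at 0 in every Control library and at 2.05 or less in DCC-2036.

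Among 9 known regulators of death receptor genes, 4 rose and 0 fell, or 44.4% and 0% beside 19.2% and 22.7% of all genes, with 2 lower at an unadjusted p under 0.05 (limma) and a median of 0.58. JUN had 245, 202 and 198 in Control, against 819, 1497 and 2925 in DCC-2036, a log2 fold change of 2.83 with a wide spread between treated libraries. TRIB3 rose by 1.22, a call that held whichever library was left out. ATF4 rose by 0.78 and FOXO3 by 0.72. The calls of JUN, ATF4 and FOXO3 were each lost without Control replicate 1, 2 or 3 and without DCC-2036 replicate 2. ATF4 and its partners are known as inducers of TNFRSF10B, whose own values lay below Control here. DDIT3, also on this list, had 202, 226 and 219 in Control, against 187, 194 and 209 in DCC-2036. It was not called (-0.13).

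**Figure D4:**
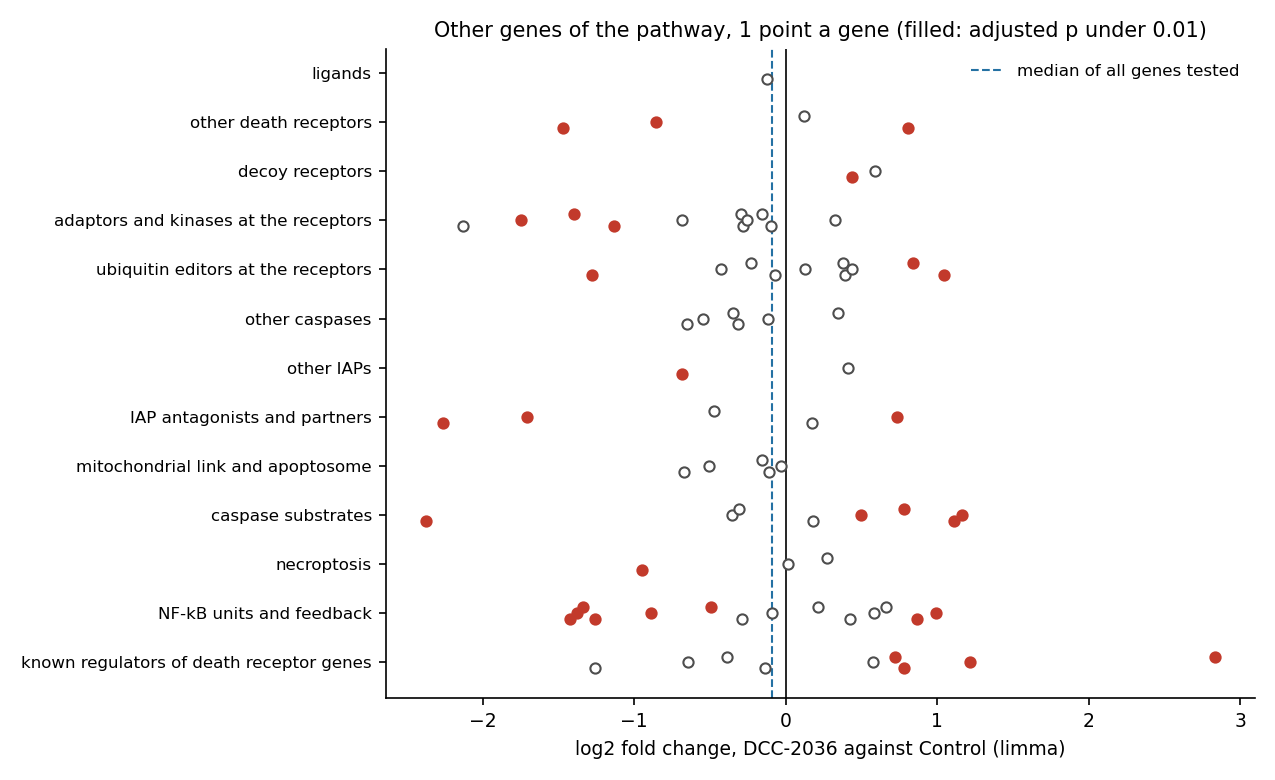
Log2 fold change of DCC-2036 against Control for the 80 tested genes of the 13 pathway lists, 1 point per gene with filled points for an adjusted p under 0.01 in limma (n = 3 libraries per group), and the median of all tested genes as a dashed line. Calls lie on both sides of 0, with 17 lower and 15 higher, and none among the other caspases.

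Over all genes, the libraries of DCC-2036 differed more among themselves than those of Control (median SD of log2 values 0.23 against 0.10). FAS (0.11 against 0.24) and BIRC3 (0.06 against 0.46) went the other way. Replicate 2 was the middle one of the treated libraries for 6 of the 8 genes and for 67.6% of all tested genes, while the middle Control library was replicate 2 for 41.1%. By the rule for likeness, the genes with the closest pattern to CASP8 over the 6 libraries were TPRG1L, PICK1 and BACE2, with Pearson's r of 0.999, 0.998 and 0.998 on the log2 scale. These are the highest of 12725 genes and rest largely on the difference between the 2 groups.

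Epithelial markers went in both directions. The values of 10 colorectal epithelial markers summed to 104483, 108193 and 114998 in Control and to 148337, 163485 and 188447 in DCC-2036, with KRT8 the most abundant and LGR5 at 0 in all libraries. CEACAM5, VIL1 and LGR5, markers of the colon epithelium, stayed under 10 in every library, so the label rests on keratins, EPCAM, CDH1 and the intestinal factor CDX2, which had 213 to 365 and was not called. Of the 7 markers tested, KRT8 and CDH1 rose, by 0.84 and 1.10 on the log2 scale. KRT20, a keratin of mature colon cells, went from 64.1, 43.6 and 51.5 in Control to 17.7, 28.01 and 24.6 with DCC-2036, a log2 fold change of -1.15. The sums of leukocyte markers were 8.37 to 17.2, with PTPRC at 0 throughout and CD8A the most abundant, those of endothelial markers were 4.98 to 40.2, led by VWF, and those of fibroblast markers were 370 to 553, led by COL1A1. The rise of the epithelial sum came mostly from KRT8. The part of these markers in the results was not tested.

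Several of the 8 genes are neighbours. In GENCODE 29 (GRCh38) CFLAR lies at chr2:201116104-201176687 and CASP8 at chr2:201233443-201287711, 56.8 kb apart on the same strand with CASP10 between them. CASP10, named here for its position, was not called (-0.35). BIRC3 at chr11:102317450-102339403 and BIRC2 at chr11:102347211-102378670 are 7.8 kb apart on the same strand. FAS lies at chr10:88990582-89015785 and XIAP at chrX:123859724-123913979. TNFRSF10B at chr8:23020133-23069179 and TNFRSF10A at chr8:23190452-23225126 are 121.3 kb apart on the minus strand, with the decoy genes TNFRSF10C and TNFRSF10D between them. TNFRSF10D lay above Control with DCC-2036, while the values of TNFRSF10A and TNFRSF10B lay below it.

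Reads of overlapping genes may be shared, because the library kit does not mark strand. FAS shares 758 bases with ACTA2 on the other strand, which had 13.8 to 24.6 in Control and 6.28 to 14.9 in DCC-2036, well below the values of FAS. TNFRSF10B shares 67 bases with RHOBTB2, which was at -1.05 and not called. Longer overlaps on the other strand are with genes absent from the table: 17546 bases of CFLAR with CFLAR-AS1 and 2512 with IMPDH1P10, 1307 of XIAP with XIAP-AS1, and 951 of TNFRSF10B with AC107959.2. Their share in the values is unknown. How reads were divided among BIRC2 and BIRC3, or among the TRAIL receptor genes, which are close copies in part, is not given in the sources used here.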

How the data were processed

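RNA was isolated with Trizol and made into libraries with the Nextera XT kit, per the labels. The authors deposited 1 table with a normalized signal per RefSeq transcript and library, said to be adjusted for depth in a way that is not given. The authors' log2 fold changes and the deposited p-value (q-value) columns were not used. Aligner, annotation and genome build are not given in the sources used here. Values are not whole, and 2061 to 2345 values per DCC-2036 library lie above 0 and under 0.1 against 0 in each Control library, a difference between the columns of the groups that is not explained. Reads could not be recovered, and the precision that depth would give is unknown. Of further sample columns there were 0.

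Samples were grouped by title. Of 45006 transcripts, 4524 were at 0 in all libraries. For each of 19223 symbols the transcript with the highest mean was kept, and the 12725 symbols that reached 10 in 3 or more libraries entered the test as log2(value + 1) with limma 3.58.1 in R 4.3.3, without covariates, with Benjamini-Hochberg adjustment over all of them. All 32323 transcripts that passed the same filter, and 19592 ratios of another to the main transcript of a gene, were fitted likewise. Log2 fold changes understate differences of low values. An exact permutation test of 3 against 3 cannot go below p = 0.1. The code was tested on simulated data.

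The members and the lists were chosen with earlier results of these data known. All 8 members were named, and from the 13 pathway lists genes at an adjusted p under 0.01, up to 4 per direction with the largest changes, as well as genes at or near 0. CASP10, DDIT3, RELA and NFKBIB were named outside this rule. The listed gene SEPT4 matched no symbol, since the table holds names of that kind in the form of dates. Marker lists were summed. Positions and transcript structures came from GENCODE 29, promoter windows from RefSeq; tables were handled with Python 3.11.15, pandas 2.3.3 and matplotlib 3.10.9. Alternatives were 3 scalings, 2 filters, a pseudocount of 0.1, a trend in limma, a replicate block, each library left out, other limits for a call, sums of transcripts and all transcripts as rows.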

Additional observations from a re-analysis of the deposited data

How the results depend on the processing

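No gene of the 8 was called higher under any alternative except with a limit of 0.05 on the adjusted p, where FAS made it 1. The count called lower, 1 as reported, was 4 with that limit, 3 for limma with a trend, and 0 with no filter on low values, with a log2 fold change of at least 1 or with the replicate block. It ranged from 0 to 4 with each library left out. The direction of 7 of the 8 genes held under all 18 alternatives; that of BIRC3 turned to -0.05275 without Control replicate 2, and was 0.4012 without Control replicate 1.

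Of the transcripts, 1 was called higher and 9 lower. The limit of 0.05 gave 6 and 16, a log2 fold change of at least 1 gave 0 and 0, no filter gave 4 lower, and leaving out a library gave 0 to 1 higher and 0 to 14 lower. Ratios within genes, 0 in each direction, came to 2 higher and 2 lower at 0.05. Listed genes, 15 higher and 17 lower, came to 5 higher with a log2 fold change of at least 1, to 24 higher at 0.05, and to 4 to 19 higher and 6 to 20 lower with a library left out.

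Deviations of replicates that share a number were hardly correlated (0.081, -0.0352 and -0.00329). This cannot settle whether the numbers pair the libraries. The treated libraries have a wider spread of their own (median SD 0.23 against 0.10), which could hide a shared part. The replicate block left 0 members lower, 0 transcripts lower, and 7 listed genes higher and 8 lower; over all genes it called 1202 higher and 1909 lower instead of 2442 and 2887. In 4 of the 6 fits without a library, calls over all genes dropped to 929 to 968 higher and 1502 to 1650 lower. Without DCC-2036 replicate 1 they rose to 2717 and 3444, and without DCC-2036 replicate 3 to 2501 and 3198, although each fit loses as many degrees of freedom. Scaling to equal totals moved the share of higher calls from 45.8% to 33.6%. The cause of these differences was not tested. Tests on read counts were not run, as the values are not counts.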
